A study of Mus musculus with 4 samples.

Results

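Cullins and Kelch-BTB adaptors, the scaffolds and substrate receptors of cullin-RING ubiquitin ligases, were followed in gastrocnemius muscle that lacked FoxO1, FoxO3 and FoxO4 and in control muscle, each starved or fed. Members were chosen by gene name alone, as every gene on the array whose annotated symbol was Cul, Klhl or Kbtbd followed by a digit, under current names where these had changed. This gave 50 of the 18193 genes measured, with 8 cullins, 33 Klhl and 9 Kbtbd genes. They were represented by 92 probe sets, and each gene was read from its brightest probe set by mean over the arrays. Of the 50 genes, 42 passed a filter on dim signals, under which a gene had to reach the 50th percentile of an array on at least 1 array. The 8 genes that stayed under it were Kbtbd6, Klhl1, Klhl10, Klhl14, Klhl32, Klhl33, Klhl35 and Klhl36, with signals of 0.2 to 18.3, and their fold changes are not given. The muscle genes Klhl31 and Klhl38 were not analysed here.

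The knockout group carried floxed FoxO1, FoxO3 and FoxO4 alleles with a Cre transgene driven by the MLC1f promoter, described for these mice as active in type II and not in type I fibres. The control group, labelled wild type, consisted of FoxO1,3,4 f/f animals, so that both genotypes carried the floxed alleles. All mice were males from a cross of C57BL/6N and FVBN aged 2 to 4 months by the methods, and starved animals went without food for 24 h with free access to water while fed animals had both. RNA of 6 muscles from 3 mice was pooled for each condition and hybridised to 1 array, which gave 1 array each of starved knockout, fed knockout, starved control and fed control muscle. None of the differences below therefore has a replicate check or a test, and the spread between mice is unknown.

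Cullin-RING ligases attach ubiquitin to proteins. A cullin holds a RING protein that recruits the ubiquitin-conjugating enzyme at its one end and an adaptor with the bound substrate at its other end, and it is activated when the small protein Nedd8 is joined to it. Cul1 works with Skp1 and F-box proteins, among them the atrophy-related ligase subunit atrogin-1, whereas Cul3 binds BTB domains directly, so that a Kelch-BTB protein is adaptor and substrate receptor in a single chain. Several Kelch-BTB genes are best known from skeletal muscle, where mutations in KLHL40, KLHL41 and KBTBD13 cause nemaline myopathy in humans.

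The deleted genes were read first. Foxo1 signal was 165.5 in starved and 185.2 in fed knockout muscle, against 554.4 in starved and 303.8 in fed control muscle. Foxo4 signal was 34.3 and 31.3 in starved and fed knockout muscle, against 291.3 and 296.9 in starved and fed control muscle. Foxo3 signal was 460.9 and 297.3 in starved and fed knockout muscle, against 477.8 and 250.1 in the controls, so that this probe set did not separate the genotypes. Where its probes lie relative to the deleted part was not examined, and it is no check of the label.

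The arrays were not on a common scale. Their median signals were 22.9 (starved knockout), 23.8 (fed knockout), 26.0 (starved control) and 26.3 (fed control), and the median log2 ratio of knockout over control over all 12545 genes past the filter was -0.16 starved and -0.20 fed. Fold changes between genotypes below are of the signals as deposited, hold this offset and are to be read beside those medians. As a yardstick, the scatter between probe sets of the same gene was taken. The standard deviation of their control starvation log2 fold changes was 0.725 for mean signals under 50, 0.411 from 50 to 100 and 0.368 from 100 to 200. It was 0.308 from 200 to 500 and 0.291 above. These probe sets were read on the same arrays, so this scatter does not measure differences between arrays or between RNA pools. Where a ratio between genotypes is given as a multiple of the scatter, the offset between the arrays was not taken out first. Summed signals of 10 skeletal muscle markers lay between 133905 and 142750 on the 4 arrays, and none of the 10 changed by 1.5-fold. Markers of skin differed between arrays, with the 10 hair shaft genes, 9 of them past the filter, summing to 1718.2 and 145.8 in starved and fed knockout muscle, against 76.9 and 1100.6 in starved and fed control muscle, and the 7 epidermis genes with a probe set, all past it, summing to 1023.0, 1572.2, 1214.9 and 549.0 in that order. The 7 slow fibre markers (29929.8, 32444.4, 26663.0 and 29462.2) held none that changed by 1.5-fold, nor did the 5 macrophage and lymphocyte markers past the filter, the sums over all 7 with a probe set being 3601.1, 3823.5, 4783.0 and 4912.6. Fibroblast markers, of which 3 of 5 fell on starvation in each genotype, summed to 16707.5, 20939.8, 17934.0 and 23771.6, adipocyte markers, of which 3 of 4 were lower in starved knockout than in starved control muscle and 2 of 4 in fed, to 3417.7, 4041.5, 5820.3 and 5107.7, and endothelial markers to 1930.8, 2003.8, 2231.0 and 2568.9. The 3 red blood cell markers with a probe set summed to 92.6, 70.6, 163.5 and 78.4. The part of these cell types in the results below was not tested, and in whole muscle fewer cells of a type and less RNA per cell cannot be told apart.

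Few of the ligase genes rose on starvation when each was read from its brightest probe set. In starved knockout muscle, none of the 42 genes past the filter was higher than in fed knockout muscle by 1.5-fold, the threshold named in the methods, where 7.3% of all genes were. In the same comparison 3 were lower (Klhl6, Klhl13 and Klhl18), 7.14% beside 9.42% of all genes. In starved control muscle, 1 gene (Klhl21) was higher than in fed control muscle, a share of 2.38% beside 9.2% of all genes. A further 6 genes were lower in starved control muscle (Kbtbd4, Kbtbd13, Klhl13, Klhl25, Klhl29 and Klhl42), a share of 14.3% beside 14.2% of all genes. The share that fell in control muscle was thus that of the array as a whole. At 2-fold, 1 gene was higher (Klhl21, beside 3.69% of all genes) and 1 lower (Klhl29, beside 4.79%) in starved control muscle, and none changed in knockout muscle, where 3.23% of all genes were higher and 3.16% lower. On starvation, the median log2 change over the 42 was -0.10 in knockout muscle and -0.04 in control muscle, beside -0.06 and -0.11 over all genes. The lack of rises in knockout muscle depended on the choice of probe set. With the mean over all probe sets, 9.52% rose there by 1.5-fold, beside 10.3% of all genes. In control muscle 2.38% rose with that mean, beside 11.4% of all genes.

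**Figure D1:**
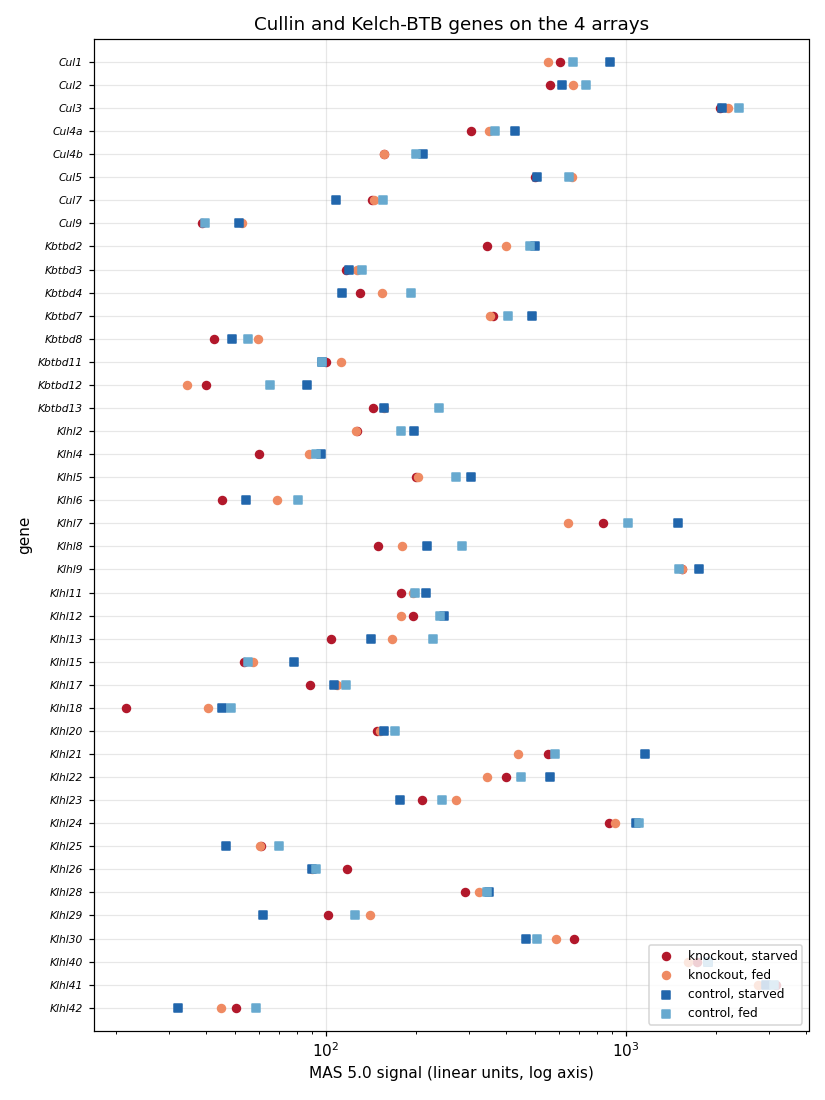
MAS 5.0 signal of the 42 cullin and Kelch-BTB genes past the filter on dim signals (log axis), with 1 point for each pooled array. Genes are listed by family and number and levels are comparable only within a row. The starved control point of Klhl21 (1163.0) stands to the right of the other 3 arrays (437.7 to 579.2).

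Klhl21 was the gene called higher in starved control muscle with the signals as deposited. It encodes a Cul3 adaptor that, in human cells, directs the ubiquitination of Aurora B during mitosis. Its signal was 552.6 in starved and 437.7 in fed knockout muscle, against 1163.0 in starved and 579.2 in fed control muscle. The starved control array stood above the other 3, which lay between 437.7 and 579.2. Starvation raised the signal 2.01-fold in control muscle (log2 fold change 1.01, 3.5 times the scatter between probe sets at that signal), while the ratio in knockout muscle was 1.26 (0.34). The difference of the log2 fold changes, knockout minus control, was -0.67, or 1.8 times its scatter. A second probe set of Klhl21 was dim, with signals between 1.2 and 3.8, and did not pass the filter, and when it was averaged in, the control log2 fold change was 0.56 and the call was lost. Both red blood cell markers past the filter, Alas2 and Slc4a1, were also higher in starved control muscle, with ratios of 1.35 and 1.22 on starvation in knockout and 2.00 and 2.71 in control muscle, and both were lower in starved knockout than in starved control muscle (0.547 and 0.576). The haemoglobin gene Hba-a1 stayed under the filter at 1.8 to 3.1, and the part of these cells in the Klhl21 values was not tested. A rise past the threshold in control muscle without one in knockout muscle was seen in 6.59% of all genes. From the brightest probe sets and with the signals as deposited, Klhl21 was the only gene of the 42 with this pattern. Dimmer sets of Kbtbd12, Klhl24 and Cul4b, given below, also had it, as did Klhl7 and Klhl15 after quantile normalisation.

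The promoter of Klhl21 is shown because it belongs to this gene, with those of Klhl7 and Kbtbd12, which were lower in knockout muscle in both feeding states, and of Cul7, the only member whose window held the letters GTAAACA. Sequences are from RefSeq on build GRCm38.p6, from 250 bases before to 50 bases after the annotated start, written along the gene's strand. Promoters of 42 of the 50 genes were matched, 56 in all, and both strands were searched for GTAAACA and CAAAACA, letters bound by forkhead proteins such as FoxO. Capitals mark a match.
Klhl21, chr4:152008641-152008940, plus strand: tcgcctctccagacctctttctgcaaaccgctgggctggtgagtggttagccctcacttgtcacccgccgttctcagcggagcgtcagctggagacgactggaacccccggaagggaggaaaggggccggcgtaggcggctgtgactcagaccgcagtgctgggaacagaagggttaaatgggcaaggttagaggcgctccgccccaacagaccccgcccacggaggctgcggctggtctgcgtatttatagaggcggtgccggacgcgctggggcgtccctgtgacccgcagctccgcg
Klhl7, chr5:24100340-24100639, plus strand: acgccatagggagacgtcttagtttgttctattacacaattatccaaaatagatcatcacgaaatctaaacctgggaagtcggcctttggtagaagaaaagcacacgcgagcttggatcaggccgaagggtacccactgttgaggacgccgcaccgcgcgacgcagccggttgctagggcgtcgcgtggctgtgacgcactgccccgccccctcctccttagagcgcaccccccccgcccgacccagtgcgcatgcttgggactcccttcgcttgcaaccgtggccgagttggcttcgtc
Kbtbd12, chr6:88627380-88627679, minus strand: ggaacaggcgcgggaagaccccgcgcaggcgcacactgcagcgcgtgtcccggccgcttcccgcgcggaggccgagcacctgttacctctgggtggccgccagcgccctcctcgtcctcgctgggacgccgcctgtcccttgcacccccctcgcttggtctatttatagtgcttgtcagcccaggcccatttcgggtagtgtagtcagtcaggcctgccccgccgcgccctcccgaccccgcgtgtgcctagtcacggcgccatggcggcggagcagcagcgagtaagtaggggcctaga
Cul7, chr17:46650088-46650387, plus strand: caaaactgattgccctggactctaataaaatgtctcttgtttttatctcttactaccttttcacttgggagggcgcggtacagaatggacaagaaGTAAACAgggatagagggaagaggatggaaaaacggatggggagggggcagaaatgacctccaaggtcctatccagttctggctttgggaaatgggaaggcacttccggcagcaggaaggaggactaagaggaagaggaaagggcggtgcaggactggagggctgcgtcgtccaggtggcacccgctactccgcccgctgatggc
The windows of Klhl21, Klhl7 and Kbtbd12 did not hold either motif, which says only that these letters are not within those bases. The match in Cul7 began at position -155 from the start. GTAAACA was found in 1 of the 56 promoters and CAAAACA in 4, those of Kbtbd2, Klhl11, Klhl13 and Klhl35, where the shares over all 32851 mouse promoters of the same length were 3.65% and 6.28%. In all, 8.93% of the members' promoters held either motif, beside 9.63% of all promoters. The promoter of Klhl24 was not searched.

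Klhl7 and Kbtbd12 were lower in knockout than in control muscle whether the animals were starved or fed, although the fed calls depended on the processing. Klhl7, a Cul3 adaptor mutated in human retinitis pigmentosa, had signals of 837.8 and 642.7 in starved and fed knockout muscle, against 1493.0 and 1020.9 in starved and fed control muscle. Both knockout arrays lay below both control arrays. How many of all genes had this pattern was not counted, here or for the genes below. With the signals as deposited, 67.2% of all genes were lower in starved and 78% in fed knockout muscle. The knockout over control log2 ratio was -0.83 starved (0.561-fold, 2.9 times the scatter) and -0.67 fed (0.63-fold, 2.8 times the scatter). Over 7 other scalings, offsets and choices of probe set, it lay between -0.87 and -0.65 starved and between -0.67 and -0.48 fed. Its second probe set gave 673.7 and 580.9 in starved and fed knockout muscle, against 1265.1 and 853.4 in starved and fed control muscle, with log2 ratios of -0.91 and -0.55. The fed call of Klhl7 was lost on any of the common scalings and the starved call was kept. On starvation, Klhl7 was at 1.30 times its fed signal in knockout and at 1.46 times in control muscle, both under the threshold. Its second probe set gave 1.16 and 1.48. At a common trimmed mean or after quantile normalisation, the control ratio passed the threshold.

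Kbtbd12 signal was 40.0 and 34.5 in starved and fed knockout muscle, against 86.9 and 65.0 in starved and fed control muscle, again without overlap of the genotypes. The knockout over control log2 ratio was -1.12 starved, 2.6 times the scatter at that signal, and -0.91 fed, 2.3 times the scatter. With arrays at the same median these ratios were -0.94 and -0.77. The second probe set read 43.5 and 32.5 in starved and fed knockout muscle, against 95.5 and 37.6 in the controls, so that it repeated the starved ratio (-1.13) and gave -0.21 fed. Averaged over both sets the fed ratio was -0.56, short of the threshold. That second probe set also differed in starvation, with log2 fold changes of 0.42 in knockout and 1.34 in control muscle, where the brighter set had 0.21 and 0.42. Over all genes, 3.34% were lower in knockout muscle by 1.5-fold in both states, and these 2 of 42 genes were 4.76% with the signals as deposited.

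Starved knockout muscle had 7 genes below starved control muscle by 1.5-fold, which were Kbtbd12, Klhl2, Klhl4, Klhl5, Klhl7, Klhl18 and Klhl21. This was 16.7% of the 42, beside 14.6% of all genes. It had 2 genes above (Klhl29 and Klhl42), 4.76% beside 6.31% of all genes. When the arrays were scaled to the same median, 4 genes were lower (Kbtbd12, Klhl7, Klhl18 and Klhl21) and 3 higher (Klhl29, Klhl30 and Klhl42), beside 8.3% and 9.99% of all genes. Fed knockout muscle had 4 genes below fed control muscle (Kbtbd12, Kbtbd13, Klhl7 and Klhl8), 9.52% beside 11.2%, and none above, where 3.34% of all genes were. With arrays at the same median, Kbtbd12 alone of these 4 remained, and 7.14% of all genes were lower and 4.74% higher. At 2-fold, 3 genes were lower in starved knockout muscle (Kbtbd12, Klhl18 and Klhl21, beside 4.5% of all genes) and none was higher (2.97%), while in the fed state none was lower or higher (3.52% and 1.7% of all genes). Without a threshold, 32 of the 42 genes (76.2%) were lower in starved knockout muscle, beside 67.2% of all genes, and 33 (78.6%) in fed knockout muscle, beside 78% of all genes. With arrays at the same median each of these counts was 24 of 42, and the share of all genes was not counted there. On that scale the median log2 ratio over the ligase genes was -0.09 starved and -0.04 fed, beside 0.02 and -0.05 over all genes.

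**Figure D2:**
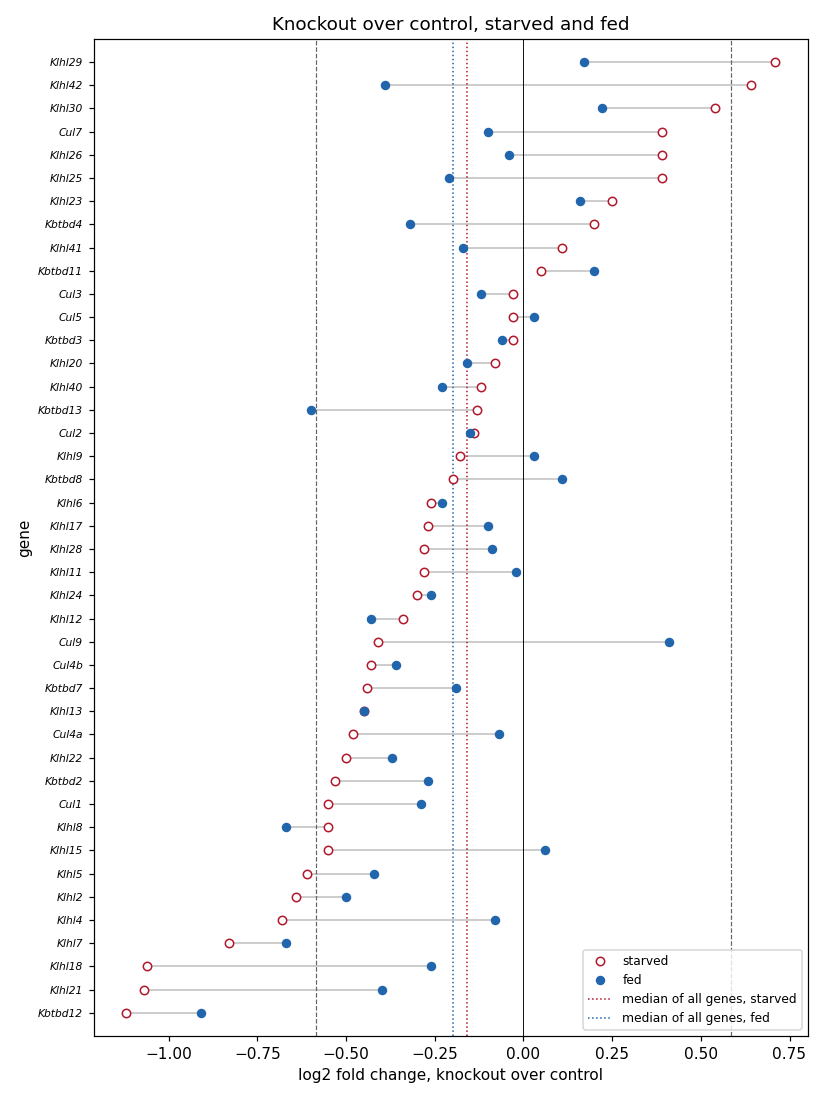
Log2 fold change of knockout over control for the 42 genes, starved (open red) and fed (filled blue), ordered by the starved value. Dashed lines stand at 1.5-fold and dotted lines at the medians of all genes (-0.16 starved, -0.20 fed). Klhl7 and Kbtbd12 lie to the left of the lower dashed line in both states.

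Of the other genes that were lower in starved knockout muscle, Klhl2 encodes an actin-binding adaptor that targets WNK kinases. Its signal was 126.7 and 126.1 in starved and fed knockout muscle, against 197.2 and 178.0 in starved and fed control muscle, log2 ratios of -0.64 and -0.50 between genotypes. A dimmer probe set of Klhl2 gave -1.28 starved and -0.09 fed, so that the probe sets shared the direction and not the size. Klhl5 signal was 200.6 and 203.2 in starved and fed knockout muscle, against 306.0 and 271.5 in the controls, with log2 ratios of -0.61 and -0.42. Both genes had knockout arrays below both control arrays and, from their brightest probe sets, starvation ratios between 0.987 and 1.13. The dimmer Klhl2 set differed here, with starvation ratios of 0.582 in knockout and 1.32 in control muscle. Klhl4 signal was 59.8 in starved and 87.7 in fed knockout muscle, against 96.1 and 92.6 in starved and fed control muscle, where the starved knockout array alone was low. Klhl18, which in human cells acts on Aurora A, read 21.6 and 40.4 in starved and fed knockout muscle, against 45.0 and 48.3 in the controls. Again only the starved knockout array was low on this probe set. Its log2 fold change on starvation was -0.90 in knockout and -0.10 in control muscle, and the ratio to the starved control, 0.48 (log2 -1.06), was 1.4 times the scatter between probe sets in that dim range. Its other probe set gave -0.48 between the starved genotypes. On starvation that set had log2 fold changes of -0.55 in knockout and -0.39 in control muscle, so that it was lower in starved muscle of each genotype. The starvation call of Klhl18 was lost with an offset of 16. The calls of Klhl2, Klhl4 and Klhl5 were lost when arrays were scaled to a common median, trimmed mean or distribution.

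Klhl8 was lower in fed knockout muscle, with a signal of 149.0 and 178.9 in starved and fed knockout muscle, against 218.4 and 284.8 in starved and fed control muscle. Both knockout arrays were lower than both control arrays, with log2 ratios of -0.55 starved and -0.67 fed. A dimmer probe set gave -1.23 starved and -0.29 fed. The fed call was lost on any of the common scalings.

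Genes that fell on starvation in control muscle did so with smaller changes in knockout muscle, apart from Klhl13. Klhl29 signal was 101.4 in starved and 140.7 in fed knockout muscle, against 61.9 in starved and 125.2 in fed control muscle. The starved control array was the lowest, its log2 fold change was -1.02 (0.494-fold, 2.8 times the scatter), and that in knockout muscle was -0.47. Starved knockout muscle was thus 1.64-fold above starved control muscle. Klhl42, an adaptor that in human cells targets the microtubule-severing protein katanin, read 50.1 and 44.7 in starved and fed knockout muscle, against 32.1 and 58.7 in starved and fed control muscle. Its log2 fold changes were 0.16 in knockout and -0.87 in control muscle, and the control change was 1.2 times the scatter at this dim signal. Its ratio between starved knockout and starved control muscle, 1.56, was under the threshold with an offset of 16.

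Kbtbd4, an adaptor mutated in human medulloblastoma, had signals of 130.5 and 154.3 in starved and fed knockout muscle, against 113.4 and 192.2 in starved and fed control muscle. Starvation gave log2 fold changes of -0.24 in knockout and -0.76 in control muscle, the second being 2.1 times the scatter. Klhl25, which in human cells marks 4E-BP1 and ATP citrate lyase for degradation, read 60.8 and 60.5 in starved and fed knockout muscle, against 46.5 and 70.1 in the controls. Its log2 fold change was 0.01 in knockout and -0.59 in control muscle, just past the threshold, and the call was lost on any of the common scalings. In all, 5 of the 42 genes (11.9%) fell by 1.5-fold in control muscle and by less than that in knockout muscle, if at all, beside 10.3% of all genes, so that this pattern was about as common among the ligase genes as on the whole array.

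Klhl13 fell in both genotypes. Together with Klhl9 it forms a Cul3 adaptor that removes Aurora B from mitotic chromosomes in human cells. Its signal was 104.1 in starved and 166.8 in fed knockout muscle, against 142.0 in starved and 227.1 in fed control muscle, a log2 fold change of -0.68 in each genotype. The other probe set gave -0.79 in knockout and -0.44 in control muscle, and with both averaged the control value was -0.56 and its call was lost. Klhl9 did not follow, with 1542.4 on both the starved and the fed knockout array, against 1750.7 and 1509.0 on the starved and fed control arrays. Klhl6, known from B lymphocytes, read 45.2 and 69.0 in starved and fed knockout muscle, against 54.2 and 80.9 in starved and fed control muscle, log2 fold changes of -0.61 and -0.58 that lay to either side of the threshold. The knockout call was lost on any of the common scalings. The summed macrophage and lymphocyte markers given above were also slightly lower in starved than in fed muscle of each genotype. Of these, Adgre1, Csf1r and Ptprc were lower in each. Lyz2 was higher in each (ratios of 1.01 in knockout and 1.04 in control muscle), and Cd68 had 1.39 and 0.906. The lymphocyte markers Cd3e and Cd79a stayed under the filter. The part of these cells in the Klhl6 values was not tested.

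**Figure D3:**
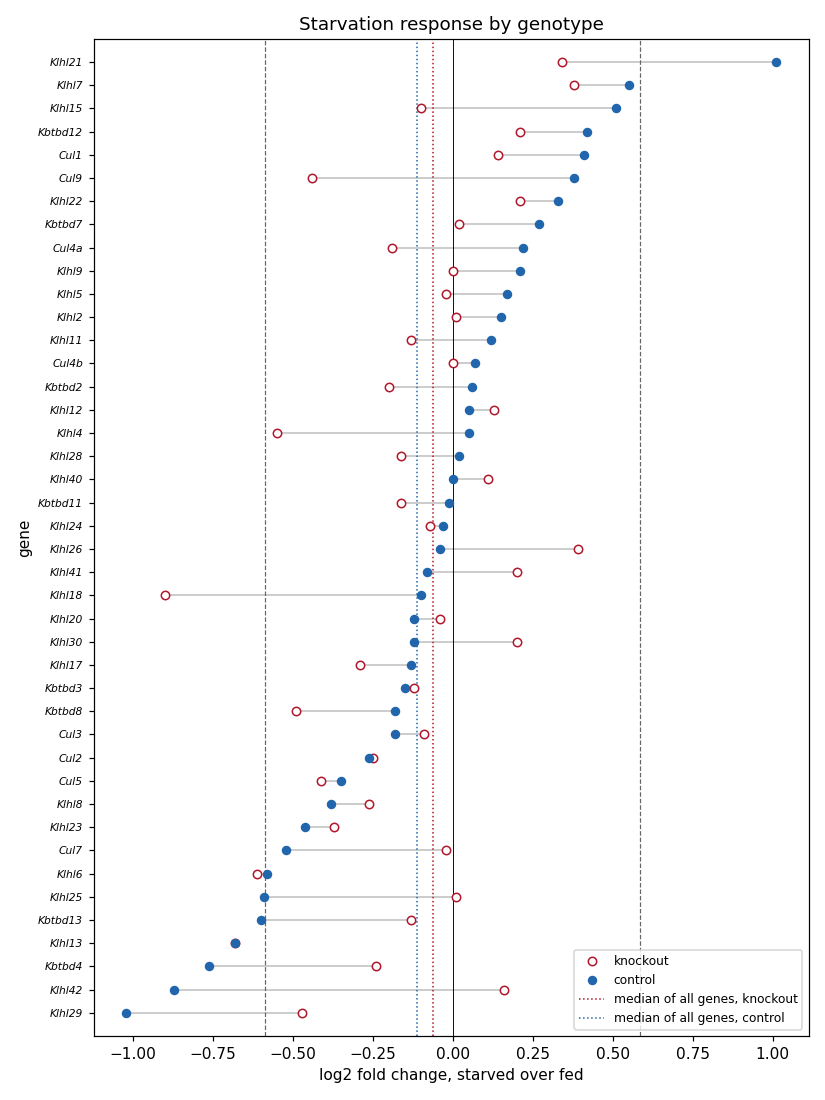
Log2 fold change of starved over fed muscle for the 42 genes in knockout (open red) and control (filled blue), ordered by the control value. Dashed lines stand at 1.5-fold and dotted lines at the medians of all genes (-0.06 knockout, -0.11 control). Klhl21 is the only point beyond the right dashed line, at 1.01 in control muscle and 0.34 in knockout muscle.

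The Kelch-BTB genes of the sarcomere differed little, with 1 exception. Klhl40, which protects nebulin and leiomodin-3 of the thin filament, had signals of 1731.0 and 1609.0 in starved and fed knockout muscle, against 1887.0 and 1883.8 in starved and fed control muscle. Klhl41, its close relative, read 3172.6 and 2767.9 in starved and fed knockout muscle, against 2947.8 and 3117.9 in the controls. The log2 changes of both genes lay between -0.23 and 0.20 in all 4 comparisons. Kbtbd13, whose human mutations cause nemaline myopathy with cores, read 143.5 and 157.0 in starved and fed knockout muscle, against 156.7 and 237.7 in starved and fed control muscle. Here the fed control array stood above the other 3, with a log2 fold change on starvation of -0.13 in knockout and -0.60 in control muscle. The other Kbtbd13 probe set had 94.3 and 164.5 in starved and fed knockout muscle, against 86.6 and 230.0 in the controls, log2 fold changes of -0.80 and -1.41. The brighter set carries the suffix that Affymetrix gives to probes that may bind other transcripts too, and its call was lost on the common scalings.

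Nebulin and leiomodin-3, the clients of Klhl40, were read beside it for that reason. Neb signal was 7486.3 and 7915.3 in starved and fed knockout muscle, against 8651.9 and 7792.2 in starved and fed control muscle. Lmod3 signal was 942.2 and 1292.6 in starved and fed knockout muscle, against 872.1 and 1488.5 in the controls, and it fell in control muscle (log2 fold change -0.77), with -0.46 in knockout muscle. Neb thus stayed under the threshold on starvation and Lmod3 passed it in control muscle.

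From their brightest probe sets and with the signals as deposited, none of the 8 cullins changed by 1.5-fold in any of the 4 comparisons. Over all genes, 3.34% to 9.2% were higher and 9.42% to 14.6% lower, shares that amount to few genes among 8. Dimmer sets did pass 1.5-fold. On starvation in control muscle, Cul4b had a ratio of 1.59 (1.45 in knockout muscle) and Cul9 of 0.457. A dimmer Cul2 set had a knockout over control ratio of 1.58 in fed muscle. Cul9 was called higher in fed knockout muscle at a common trimmed mean, and Cul7 in starved knockout muscle after quantile normalisation. Cul3, the cullin that Kelch-BTB adaptors bind, had a signal of 2057.4 in starved and 2188.5 in fed knockout muscle, against 2103.3 in starved and 2380.4 in fed control muscle. Its 5 probe sets gave starvation log2 fold changes of -0.33 to -0.01 in knockout and -0.30 to -0.09 in control muscle. Cul1, the scaffold of the F-box ligases, read 606.3 and 549.2 in starved and fed knockout muscle, against 887.2 and 669.6 in starved and fed control muscle. The starved control array was the highest for Cul1, with log2 fold changes on starvation of 0.14 in knockout and 0.41 in control muscle. Starved knockout muscle was at 0.683 of starved control muscle (log2 ratio -0.55, 1.9 times the scatter). With arrays at the same median this log2 ratio was -0.37.

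Cul2, which serves the hypoxia-related receptor VHL, had signals of 559.8 and 665.3 in starved and fed knockout muscle, against 615.5 and 736.0 in starved and fed control muscle. Cul5, which works with SOCS-box receptors, read 497.5 and 660.7 in starved and fed knockout muscle, against 508.1 and 647.6 in the controls. Cul5 was thus lower in starved muscle of each genotype by 0.41 and 0.35 on the log2 scale, 1.6 and 1.2 times the scatter, and its 3 probe sets had starvation values of -0.41 to -0.03 in knockout and -0.35 to -0.17 in control muscle. Cul4a, which binds substrates through DDB1, read 306.1 and 349.7 in starved and fed knockout muscle, against 427.4 and 366.2 in the controls. Its paralogue Cul4b read 156.3 and 156.6 in starved and fed knockout muscle, against 210.8 and 200.5 in the controls.

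Cul7, a scaffold that pairs with the F-box protein Fbxw8, had signals of 142.5 and 144.7 in starved and fed knockout muscle, against 108.4 and 155.2 in starved and fed control muscle. Its log2 fold change was -0.02 in knockout and -0.52 in control muscle, 1.4 times the scatter and short of the threshold. Cul9, which binds p53 in the cytoplasm, read 38.6 and 52.4 in starved and fed knockout muscle, against 51.3 and 39.5 in the controls, and its 2 probe sets ranged over -1.13 to 0.38 on starvation in control muscle. Of the 8 cullins, 7 were lower in starved knockout than in starved control muscle with the signals as deposited, beside 67.2% of all genes, and 4 of 8 with arrays scaled to the same median. For fed muscle these counts were 6, beside 78% of all genes, and 3, and the median log2 ratio of the cullins turned from -0.11 to 0.03 with that scaling. Over all genes the scaled medians were 0.02 starved and -0.05 fed, and the share of all genes that were lower was not counted on that scale.

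Klhl24 was singled out after its values had been seen, because its 5 probe sets disagreed. In humans, mutations that stabilise this adaptor cause skin fragility through loss of keratin 14. The brightest set read 877.8 and 921.6 in starved and fed knockout muscle, against 1080.3 and 1105.5 in starved and fed control muscle, log2 fold changes of -0.07 and -0.03 on starvation. The next read 680.7 and 586.1 in starved and fed knockout muscle, against 1215.8 and 667.6 in the controls, log2 fold changes of 0.22 and 0.86. The other 3 sets had log2 fold changes of -0.55 to 0.06 in knockout and 0.40 to 0.65 in control muscle. In control muscle, 4 of the 5 sets were therefore higher after starvation by 0.40 to 0.86 and the brightest was not. In the starved state all 5 were lower in knockout than in control muscle, by log2 ratios of -1.23 to -0.30. Averaged over its probe sets, Klhl24 had a log2 ratio of -0.81 between starved knockout and starved control muscle, against -0.30 from the brightest set.

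**Figure D4:**
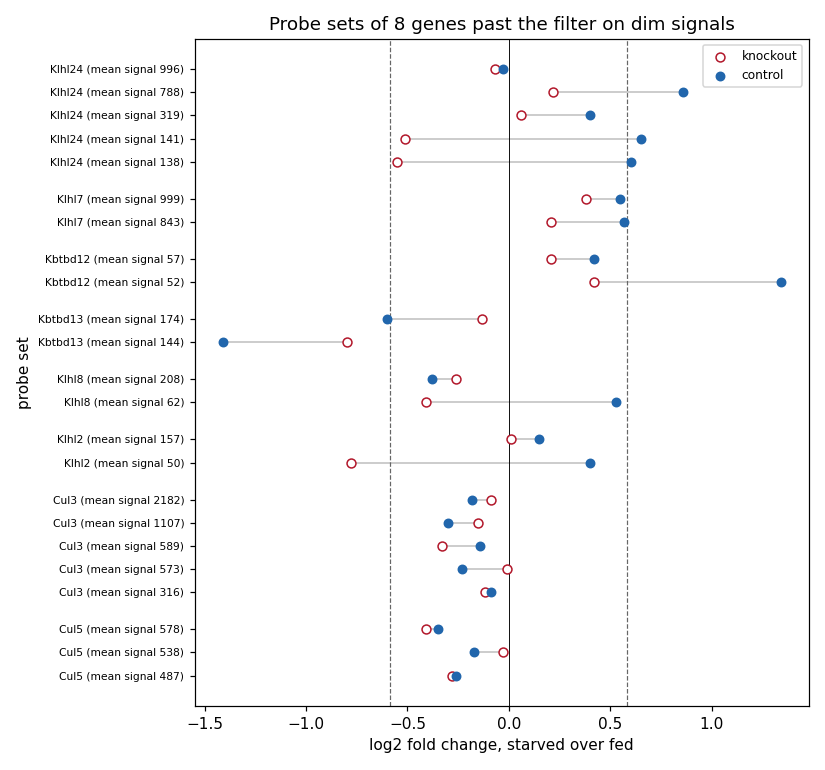
Log2 fold change of starved over fed muscle for every probe set past the filter of 8 genes, in knockout (open red) and control (filled blue), with dashed lines at 1.5-fold. The 5 Cul3 sets stay within -0.33 and -0.01, whereas those of Klhl24 spread from -0.55 to 0.86.

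Such disagreement was not limited to Klhl24. Of 19 genes with at least 2 probe sets past the filter, all sets shared a sign in 12 for starvation in knockout muscle, in 14 for starvation in control muscle and in 12 for either comparison of genotypes. A change seen by 1 probe set of these genes is to be read with that in mind. Of the 50 genes, 22 had a single probe set.

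The 42 genes were also read for the size of the starvation response between genotypes, the log2 fold change in knockout minus that in control muscle. Its median was -0.07 over the 42 genes and 0.04 over all genes, and it was below 0 in 25 of 42 genes (59.5%) beside 45.7% of all genes. Some genes did not reach the threshold in any comparison with their brightest probe set. Among them, Klhl15, which targets a regulatory subunit of protein phosphatase PP2A, had log2 fold changes of -0.10 in knockout and 0.51 in control muscle. Its dimmer set had 0.68 and 0.56. Kbtbd2, which in mice limits the p85 subunit of PI3K, had -0.20 and 0.06, and Klhl22, which in human cells targets the mTORC1 regulator DEPDC5, had 0.21 and 0.33. Klhl26 had 0.39 and -0.04, and Klhl30 had 0.20 and -0.12. From their brightest probe sets, Klhl12, Klhl20, Klhl28, Klhl17, Klhl11, Klhl23, Kbtbd3, Kbtbd7, Kbtbd8 and Kbtbd11 had values between -0.49 and 0.27 in either genotype. Dimmer sets past the filter went beyond this in Klhl17 (-0.53 in knockout and -0.95 in control muscle) and Klhl28 (-0.56 and 0.14). They also did so in Kbtbd11 (0.62 and -2.63, at signals of 1.7 to 26.3).

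**Figure D5:**
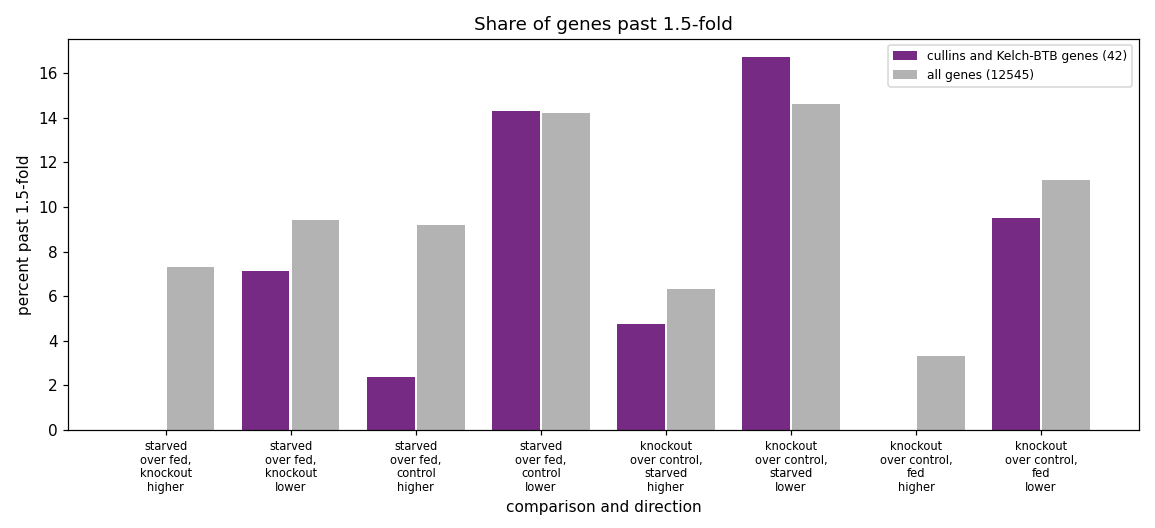
Percentage of the 42 cullin and Kelch-BTB genes (purple) and of all 12545 genes past the filter (grey) that were higher or lower by 1.5-fold in each comparison of 2 pooled arrays. Each gene was read from its brightest probe set. The ligase genes that were higher after starvation made up 0 and 2.38% in knockout and control muscle, where all genes gave 7.3% and 9.2%. With the mean over all probe sets the knockout share was 9.52%, beside 10.3% of all genes.

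The rest of the cullin-RING machinery was read from lists of genes outside the naming rule. Of 9 core subunits and adaptors (among them the RING protein Rnf7, Skp1, the elongins and Ddb1), 1 fell on starvation in knockout muscle, where 9.42% of all genes did, and none changed by 1.5-fold in control muscle, where 9.2% of all genes rose and 14.2% fell. That gene was Rbx1, the RING protein of most cullins, at 11.7 and 36.5 in starved and fed knockout muscle, against 44.3 and 36.5 in the controls, a dim probe set. Rnf7, the RING protein of Cul5, read 1640.1 and 1847.7 in starved and fed knockout muscle, against 1656.0 and 2216.7 in the controls.

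A list of 22 genes covered the joining of Nedd8 to cullins and its removal, and also held the cullin regulators Cand1, Cand2 and Glmn. Of these, 1 fell in starved knockout and 5 in starved control muscle, where 9.42% and 14.2% of all genes fell, and none rose in either. Over the 22, the median on the log2 scale was -0.07 in knockout and -0.19 in control muscle. Cand2, the muscle-enriched exchange factor for cullin adaptors, read 579.3 and 683.3 in starved and fed knockout muscle, against 347.0 and 608.7 in starved and fed control muscle. The starved control array was the lowest, with log2 fold changes of -0.24 in knockout and -0.81 in control muscle. Dcun1d1, which helps to transfer Nedd8 to cullins, read 150.5 and 186.0 in starved and fed knockout muscle, against 153.2 and 286.4 in the controls, log2 fold changes of -0.31 and -0.90. Its relative Dcun1d2 had -0.39 and -0.63, and Senp8, the protease that matures Nedd8, had -0.18 and -0.60. Cops7b, a subunit of the COP9 signalosome that removes Nedd8, fell in both genotypes (-0.61 and -0.63). The related subunit Cops7a, which did not pass, had -0.03 and -0.45.

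Among 18 BTB adaptors with other names, 1 rose and 1 fell in starved knockout muscle, where 7.3% of all genes rose and 9.42% fell. In starved control muscle 3 rose and none fell, where 9.2% of all genes rose and 14.2% fell. Enc1, a Kelch-BTB adaptor first known from neurons, rose in both genotypes, with 299.3 and 145.2 in starved and fed knockout muscle, against 360.6 and 174.2 in starved and fed control muscle, ratios of 2.06 and 2.07. Ivns1abp, an actin-associated Kelch-BTB protein, read 2455.7 and 2152.3 in starved and fed knockout muscle, against 3601.0 and 2307.1 in the controls. It rose 1.56-fold in control muscle, with 1.14-fold in knockout muscle, and the starved control array stood above the other 3 as it did for Klhl21. Kctd13 rose 1.55-fold in control muscle at signals of 22.4 to 34.7, and Rhobtb1 fell in knockout muscle (145.4 starved, 229.0 fed), against 193.0 and 218.5 in the controls.

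Of 22 genes whose proteins are reported as partners or substrates of Kelch-BTB adaptors, 20 passed the filter. In starved knockout muscle 3 of these rose and 2 fell, where 7.3% of all genes rose and 9.42% fell. In starved control muscle 5 rose and 4 fell, where 9.2% of all genes rose and 14.2% fell. Tiam1, an activator of Rac that Kbtbd6 and Kbtbd7 target in human cells, read 85.3 and 160.2 in starved and fed knockout muscle, against 54.2 and 164.2 in the controls, and fell in both. Stk39, a kinase downstream of the WNK kinases, had log2 fold changes of -0.24 in knockout and -1.04 in control muscle. Pik3r1, the p85 subunit that Kbtbd2 limits, rose in knockout muscle, to 1217.6 in starved beside 659.2 in fed muscle, against 777.3 and 736.9 in starved and fed control muscle. Eif4ebp1, Ulk1 and Krt14 rose in control muscle, with log2 fold changes of 2.09, 1.43 and 1.90, against 0.79, -0.01 and 0.50 in knockout muscle. Eif4ebp1 thus passed the threshold in knockout muscle too (1.72-fold). Flnc also rose in both genotypes, 1.77-fold in knockout and 2.21-fold in control muscle. Krt14 is also a marker of epidermis, whose summed markers differed between the arrays as given above. These are transcript levels, and the amounts of the proteins were not measured on the arrays.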

How the data were processed

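Gene expression in gastrocnemius muscle was measured on 4 Affymetrix mouse arrays, 1 for each condition. The values the authors deposited are signal intensities on a linear scale, summarised with the MAS 5.0 algorithm, and the submitters' notes list MAS5 and Affymetrix Expression Console. The sources used here do not state the scaling target or detection calls, and no column of fold changes was used. Signals were used as deposited, and a signal under 0.1 was set to 0.1 before a logarithm was taken.

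Of 45037 probe sets without the array's controls, 34945 had 1 gene symbol in the platform annotation, 932 had several and 9160 were not listed. Symbols of 34741 were updated through RefSeq gene identifiers. Each of 18193 genes was read from its brightest probe set by mean signal, and 12545 genes passed the filter on dim signals, which required the 50th percentile of an array to be reached on at least 1 array. Fold changes were computed with pandas 2.3.3 and numpy 2.4.6 under Python 3.11.15 and called at 1.5-fold, the threshold named in the methods. The calling was tested on simulated signals, and figures were drawn with matplotlib 3.10.9. With 1 pooled array a condition there was no replicate and no test. As a measure of scatter between probe sets, the standard deviation of log2 fold changes between probe sets of the same gene was taken in 5 signal ranges over all genes. It does not hold the error between arrays.

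The members and the gene lists were chosen with earlier results of these data known. Signals were given in full for every cullin, for the muscle genes Klhl40, Klhl41 and Kbtbd13, and for the other members that reached 1.5-fold in a comparison. From each gene list, the 4 genes at most that changed most and the 4 at most whose starvation response differed most by genotype were named. Alternatives were 3 scalings of the arrays, 3 other filters, an added offset, the mean over all probe sets and a 2-fold threshold. The probe set brightest in fed muscle and the mean over the probe sets past the filter were added after the data had been seen. Promoters came from RefSeq tables of build GRCm38.p6.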

Additional observations from a re-analysis of the deposited data

How the results depend on the processing

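No paired analysis was possible because each condition has 1 array. At 1.5-fold, 3 genes were called on starvation in knockout and 7 in control muscle, and 9 and 4 between genotypes in starved and fed muscle. Fed muscle had 1 call with arrays at a common median, 2 with a common trimmed mean, 1 after quantile normalisation and 1 with the mean over the probe sets past the filter. Of all genes, 4.74% to 5.32% were higher and 6.23% to 7.14% lower on the 3 scalings, and 3.91% and 11.6% with that mean. Without a filter the counts were 8, 15, 16 and 10 of 50 genes in the same order. Of all genes, 15.1%, 16.5%, 13.3% and 11.4% were then higher and 16.5%, 19.8%, 21.2% and 18.9% lower. The 75th percentile filter left 30 genes, with 1 call on starvation in knockout muscle, where 3.78% of all genes were higher and 5.47% lower. It left 5 calls between starved genotypes (3.62% and 11% of all genes), and an offset of 16 left 5 there (4.18% and 9.75%). The mean over all probe sets, with dim sets averaged in, gave 10 calls on starvation in knockout muscle. Of these, 4 were higher and 6 lower (9.52% and 14.3%, beside 10.3% and 12.2% of all genes). Between starved genotypes it gave 14, with 7 higher and 7 lower (16.7% each, beside 8.23% and 17.9% of all genes). The median difference between genotypes was then 0.02 (-0.07 as reported, -0.11 to -0.02 under the others). Knockout over control log2 ratios in starved muscle were then 0.24 for Klhl21 and 1.28 for Klhl4. At 2-fold there were 0, 2, 3 and 0 calls, to be read beside the 2-fold shares of all genes given above.

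Of 23 calls of single genes, 8 were kept under every one of 7 scalings, offsets and choices of probe set and 15 were lost under at least 1. Scaling changed the balance of all genes most between genotypes, with 792 higher and 1829 lower in starved knockout muscle as deposited, against 1253 and 1041 at a common median, 1256 and 1039 at a common trimmed mean and 1268 and 1034 after quantile normalisation. In fed muscle it was 419 and 1408, against 595 and 896, 668 and 781, and 631 and 791. On starvation in knockout muscle it was 916 and 1182, against 1047 and 989, 1045 and 991, and 1081 and 969. In control muscle it was 1154 and 1783, against 1202 and 1707, 1320 and 1496, and 1344 and 1463. After quantile normalisation, 5 ligase genes were higher and 4 lower in starved knockout muscle, 11.9% and 9.52% beside 10.1% and 8.24% of all genes. One array of pooled RNA a condition leaves the spread between mice unmeasured, and dim signals carried the widest scatter.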
